A study of Mus musculus with 18 samples.

Results

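The effect of caspase-6 knockout was compared between the epididymal white fat (eWAT) and the brown fat (BAT) of obese mice, gene by gene, as the change from WT to C6KO in eWAT minus the change from WT to C6KO in BAT. Of the 18 libraries of the study, 12 entered this comparison, 3 from each genotype in each of the 2 depots. All mice were male C57BL/6J mice. C6KO mice carried a global knockout of Casp6, and their WT controls came from the same heterozygote crosses. Both genotypes were kept on a high fat diet (60% fat) for 12 weeks, begun at 10 to 14 weeks of age, and were fasted before tissue collection. The knockout was global, so a change in a depot need not arise in its own cells. Genes were joined by symbol, which gave 25073 genes after 51 genes of chromosome Y were left out, and 15392 of them had enough counts to be tested. The labels do not say whether an eWAT and a BAT library came from the same mouse.

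White fat cells store triglyceride in a single large droplet and secrete leptin in step with their lipid content, whereas brown fat cells hold many small droplets and dense mitochondria and burn fuel for heat through UCP1. In obesity macrophages gather around dying white fat cells, take up their lipid and turn on a lysosome and lipid programme marked by Trem2, Gpnmb and Cd9, and such cells are called lipid-associated macrophages. Brown fat whitens under a high fat diet, with larger droplets and more of the genes that are typical of white fat. Caspase-6 is a cysteine protease known from cell death and from the cleavage of nuclear and cytoskeletal proteins.

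Library totals ran from 16717201 to 19139694 counts in eWAT and from 7803108 to 12428683 in BAT, so low genes were measured less precisely in BAT. Casp6 had 322, 422 and 331 counts in the eWAT WT libraries and 100, 124 and 74 in C6KO, and 145, 127 and 139 in WT and 26, 65 and 71 in C6KO in BAT. The C6KO libraries were below every WT library in both depots, by 3.63-fold in eWAT and 2.76-fold in BAT, with reads of the gene remaining in C6KO, and the difference between the depots was not past the threshold (log2 -0.40, SE 0.41, edgeR adjusted p = 0.787). Ucp1 was at 10580, 4598 and 6373 CPM (counts scaled to the TMM library size) in BAT WT and below 6 CPM in every eWAT library. BAT held skeletal muscle transcripts in amounts that did not follow the genotype: the summed level of 26 muscle genes was 214, 63209 and 2750 CPM in WT and 10559, 751 and 12410 in C6KO, against 83.7 to 118 and 90.5 to 201 in eWAT. BAT WT replicate 2 stood apart in this, and also held 33, 121 and 30.4 CPM of T and NK cell transcripts in the order of the 3 WT libraries. The summed level of 22 macrophage genes ran from 9876 to 12739 CPM in eWAT WT and 6253 to 8395 in eWAT C6KO, and from 1192 to 1529 in BAT WT and 468 to 703 in BAT C6KO, with no overlap of genotypes in either depot. Genes of chromosome Y had 4254 to 4775 counts in each eWAT library and 0 in each BAT library, with Xist at 0 to 13 counts throughout, so the 2 tables differ in their handling of chromosome Y. A difference between depots in level cannot be told apart from a difference between tables, whereas each knockout effect was taken within 1 table.

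**Figure D1:**
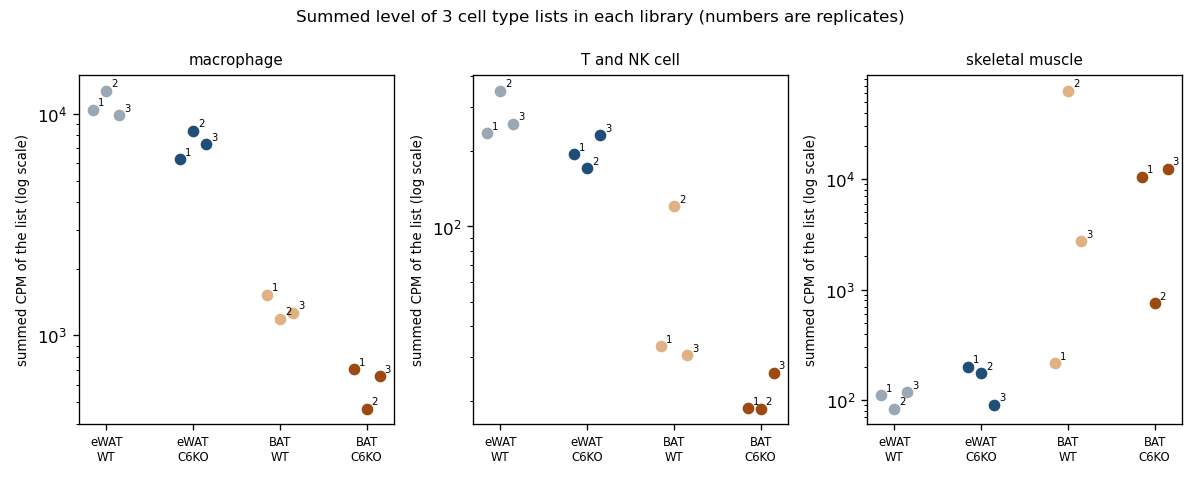
Summed CPM (log scale) of the macrophage, T and NK cell and skeletal muscle lists in each library, with 1 point a library labelled by its replicate number and 3 libraries a group. Macrophage transcripts were lower in C6KO in both depots, and BAT WT replicate 2 was the highest library for muscle transcripts.

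The knockout effect differed between the depots for 120 genes (adjusted p below 0.05 in edgeR's quasi-likelihood test of the interaction and effects at least 1.5-fold apart). In 109 of them, 0.708% of the genes tested, the effect was higher in eWAT than in BAT, and in 11, 0.0715%, it was lower. In BAT all 109 had a negative estimate and 95 of them fell by the test, and all 11 had a positive estimate and 8 of them rose. For comparison, 492 of all genes fell in BAT (3.2%) and 131 rose (0.851%), while 4 fell (0.026%) and 5 rose (0.0325%) in eWAT. The size of that contrast between depots varied with the method, and the reason was not tested. With weights for each depot limma voom called 159 lower and 83 higher genes in BAT and 93 lower and 144 higher in eWAT. DESeq2 called 796 and 208 in BAT and 73 and 205 in eWAT. Lgr4 was the 1 gene of the 120 whose eWAT effect passed the test in this fit. The C6KO and WT libraries did not overlap for 117 of the 120 genes in BAT and for 71 in eWAT, where 19.7% and 22.5% of all tested genes did not overlap. The 120 genes were chosen by a test on these same libraries, which favours separate groups, so the excess is no further support for the calls.

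By their estimates, 76 of the 120 genes changed 1.5-fold or more in BAT alone, 7 in eWAT alone, 26 in opposite directions in the 2 depots and 6 in the same direction, and 5 stayed under 1.5-fold in each. These classes rest on point estimates. For the opposite genes, 21 of the 26 passed the test in BAT (20 of them lower in C6KO), 0 in eWAT in the joint fit (23 at an unadjusted p below 0.05, 9 by DESeq2 and 10 by limma voom), and 4 in eWAT when its 6 libraries were fitted alone. In 21 of the 26 the genotypes did not overlap in either depot, and 1.36% of all tested genes had such groups in opposite directions. The choice of the 26 from the same libraries favours such groups too. The joint fit shares 1 estimate of spread, and BAT was the more variable depot, with a coefficient of biological variation of 0.321 when fitted alone against 0.191 for eWAT and 0.268 for the joint fit. Fitted alone, BAT gave 145 lower and 23 higher genes and eWAT 31 lower and 80 higher. With weights that let each depot keep its own spread (limma voom), 60 genes differed between depots, all of them among the 120. When each library was left out in turn, 35 of the 120 were called in all 12 fits, and the median gene in 7.

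**Figure D2:**
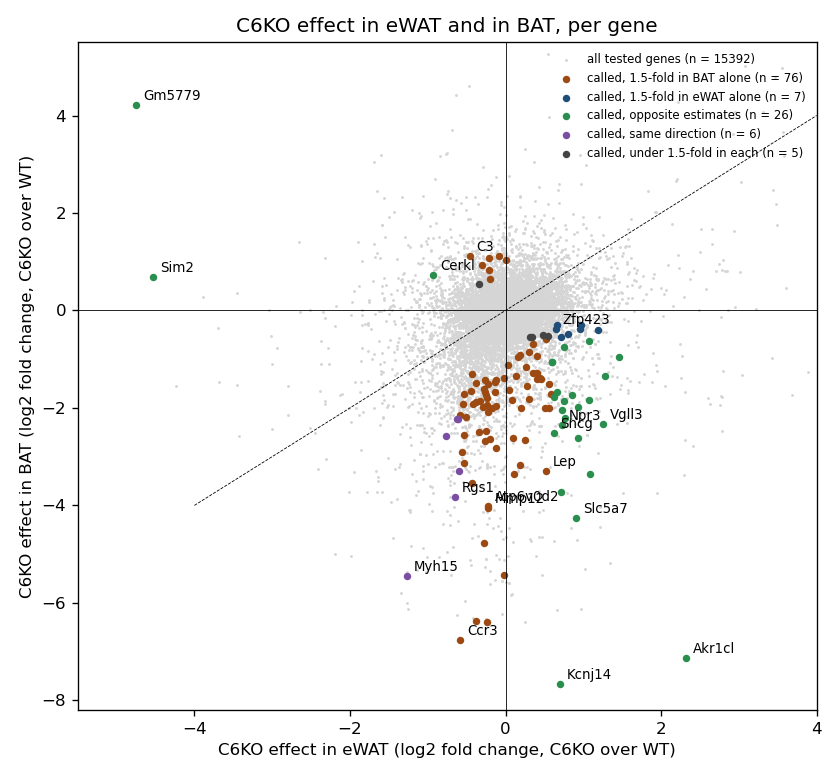
Each point is a gene, with its C6KO effect in eWAT on the x axis and in BAT on the y axis (log2 fold change, C6KO over WT). Grey points are the 15392 tested genes (16 lie outside the axes), coloured points the 120 called genes by class, and the dashed line marks equal effects. Nearly all coloured points lie below the line and below 0 on the y axis.

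Of the gene lists examined, lipid-associated macrophage genes held the most called members, and each of these fell in BAT. Of 18 tested members of that list 6 were called (33.3%, beside 0.708% of all tested genes), all with the effect higher in eWAT. In BAT 9 fell (3.2% of all tested genes did). In eWAT 0 passed by edgeR, where 2 had an unadjusted p below 0.05 and DESeq2 and limma voom called 0. The median effect of the 18 was -0.15 in eWAT and -0.79 in BAT (log2), beside -0.01 in each over all tested genes. The summed macrophage level given above moved the same way in both depots, and its part in these differences was not tested. In tissue RNA, fewer macrophages and less of a transcript in each macrophage cannot be told apart.

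Atp6v0d2, a subunit of the proton pump that acidifies lysosomes, was at 27.2, 25.9 and 23.9 CPM in BAT WT and 1.54, 1.34 and 1.84 in BAT C6KO. In eWAT it was at 545, 383 and 465 in WT and 447, 395 and 354 in C6KO. In BAT the 3 C6KO libraries all lay under the lowest WT library, with a fitted ratio of 16.2-fold, and the genotypes overlapped in eWAT (difference of effects log2 3.80, SE 0.24, edgeR adjusted p = 1.93e-05). It lies at chr4:19876838-19922566 in mm10 and had the smallest adjusted p of the 120 genes.

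Mmp12, the macrophage elastase, was at 1386, 725 and 1067 CPM in eWAT WT and 886, 1004 and 815 in eWAT C6KO. Its BAT level was 99.4, 70.1 and 50.5 in WT and 5.15, 2.24 and 5.95 in C6KO. The fall in BAT was 16.6-fold, with no such separation in eWAT (log2 difference 3.82, SE 0.49, edgeR adjusted p = 0.00477). Trem2, the lipid receptor of these cells, was at 33.3, 15.5 and 16.9 CPM in BAT WT against 1.16, 1.25 and 3.14 in C6KO, and at 461, 384 and 408 in WT and 250, 385 and 290 in C6KO in eWAT. Its eWAT groups overlapped while its BAT groups were far apart (log2 difference 3.11, SE 0.51, edgeR adjusted p = 0.0201). With weights for each depot Trem2 missed the threshold (limma adjusted p = 0.0599).

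Gpnmb, a lysosomal glycoprotein, was at 72.5, 106 and 80.2 CPM in BAT WT and 16.6, 9.14 and 16.8 in BAT C6KO, and at 2984, 1613 and 2599 in WT and 3014, 2468 and 2209 in C6KO in eWAT. It fell 6.10-fold in BAT, with overlapping genotypes in eWAT (log2 difference 2.71, edgeR adjusted p = 0.00721). Lgals3, the lectin galectin-3, followed the same course, from 168, 108 and 124 to 26.9, 9.32 and 20.8 CPM in BAT and from 2220, 1611 and 1979 to 1598, 2037 and 1702 in eWAT (log2 difference 2.69, edgeR adjusted p = 0.016). Itgax, the integrin known as CD11c, was at 18.5, 17.8 and 18 CPM in BAT WT and 2.32, 2.60 and 1.19 in C6KO, and at 495, 381 and 406 in WT and 274, 363 and 248 in C6KO in eWAT. For Itgax the C6KO libraries were below WT in both depots, by 8.79-fold in BAT and 1.45-fold in eWAT, and only the BAT effect passed the test (log2 difference 2.60, edgeR adjusted p = 0.00277). The uncalled members Spp1 and Tyrobp fell in BAT as well, by 2.80 and 1.75 on the log2 scale, with eWAT estimates of -0.50 and -0.49. Lpl, Lipa, Acp5 and Plin2 had positive BAT estimates that did not pass the test. The summed level of the list was 13424, 12099 and 14455 CPM in BAT WT and 14046, 16246 and 14599 in BAT C6KO. No called member was above 168 CPM in a BAT library, so the sum lies mostly in other members. One of these, Lpl, is also in the list of general fat cell genes. The sum therefore does not show how macrophage transcripts moved in BAT.

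General macrophage genes were lower in both depots by estimate. Of 22 tested, 2, Cd68 and Ctss, were called (9.09%, beside 0.708% of all tested genes). Negative estimates were found for 20 in eWAT and 21 in BAT, and 13 fell in BAT, as did 3.2% of all tested genes. Cd68, a lysosomal membrane protein, was at 66.4, 50.7 and 54.0 CPM in BAT WT, 19.0, 9.50 and 14.9 in BAT C6KO, 950, 810 and 875 in eWAT WT and 710, 761 and 680 in eWAT C6KO. Genotypes were separate in both depots, but the ratio was 3.94-fold in BAT and 1.22-fold in eWAT (log2 difference 1.69, edgeR adjusted p = 0.0219). Ctss, the cysteine protease cathepsin S, was at 143, 110 and 97.8 CPM in BAT WT, 26.6, 17.2 and 30.7 in BAT C6KO, 1146, 1420 and 1041 in eWAT WT and 776, 849 and 741 in eWAT C6KO, and it was lower by 4.69-fold in BAT and by an estimate of 1.52-fold in eWAT. Adgre1, which encodes the macrophage antigen F4/80, fell by 1.76 on the log2 scale in BAT with an estimate of -0.58 in eWAT, and its difference missed the threshold (edgeR adjusted p = 0.0717).

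Further genes of myeloid cells were called, a minority of their lists but a larger share than of all tested genes. The effect was called higher in eWAT for 3 of 28 complement and Fc receptor genes (10.7%). The same held for 2 of 60 chemokine and cytokine genes (3.33%) and 3 of 32 Toll-like receptor and NF-kB genes (9.38%). Over all tested genes the share was 0.708%. Cd44, a receptor for hyaluronan, was at 41.3, 39.7 and 35.1 CPM in BAT WT and 9.91, 10.6 and 8.33 in C6KO, and at 485, 406 and 399 in WT and 411, 387 and 343 in C6KO in eWAT. It fell 4.01-fold in BAT with overlapping genotypes in eWAT (edgeR adjusted p of the difference = 0.00183). Adam8, a membrane protease of leukocytes, was at 23.8, 19.5 and 24.4 CPM in BAT WT and 3.99, 3.05 and 3.79 in C6KO, and at 501, 378 and 461 in WT and 345, 449 and 374 in C6KO in eWAT, which again separated the genotypes in BAT alone (edgeR adjusted p = 0.000843). The integrin chain Itgb2 was called with a log2 difference of 1.69, the complement receptor C3ar1 with 1.51, the chemokine Ccl9 with 1.49, and the pattern receptors Tlr13 and Tlr1 with 1.49 and 1.81. All of these fell in BAT. Lbp, which carries lipopolysaccharide, fell 4.02-fold in BAT against an eWAT ratio of 1.15-fold. Cd300lb, Cd300c2, Cd300a, Lilrb4a and Lilr4b were also called and fell in BAT. They belong to families of related receptors, and the counting could have divided reads among similar copies, so each alone is uncertain.

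**Figure D3:**
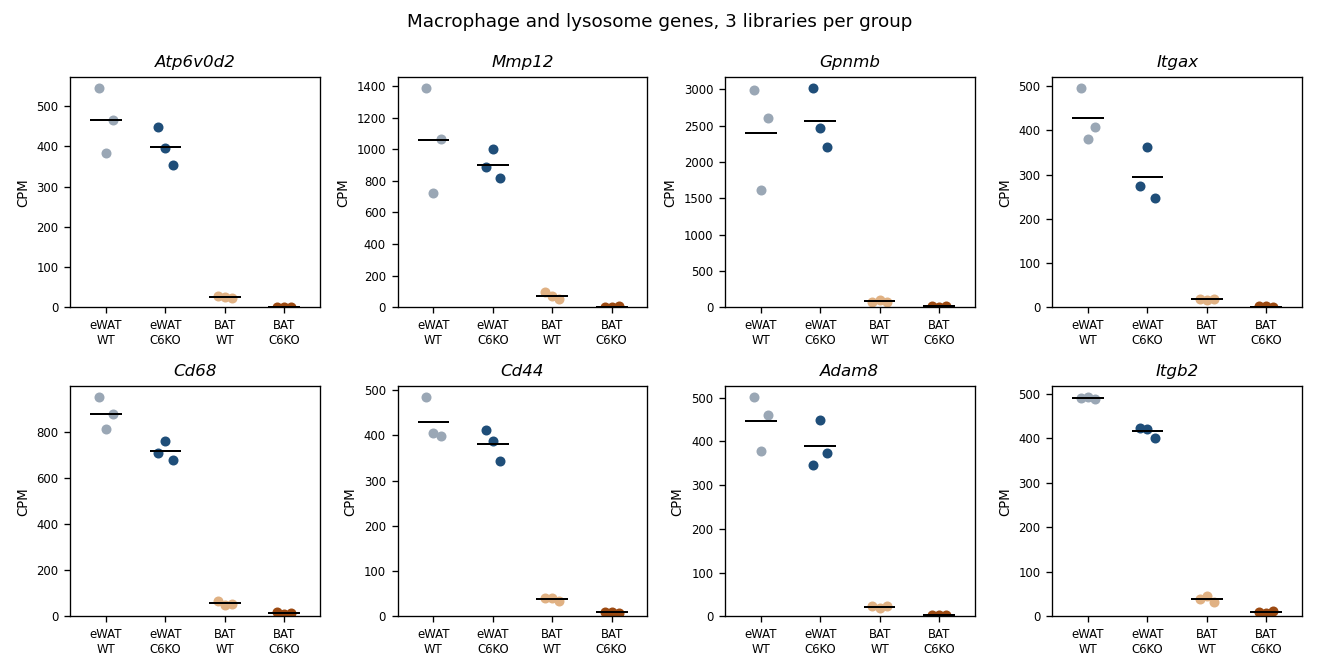
CPM of 8 macrophage and lysosome genes in each library (points, 3 a group) with the group mean (line), and the y axis from 0. In each panel the 3 BAT C6KO libraries lie below the 3 BAT WT libraries, while the eWAT genotypes overlap or lie close together.

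Promoters of the called genes were read from 250 bases before to 50 bases after each RefSeq start on GRCm38.p6, the build that the mm10 files use, and 11909 of the 15392 tested genes and 84 of the 109 genes with the effect higher in eWAT had one. Searched on both strands, the AP-1 motif TGACTCA was in 14 of the 84 (16.7%) and in 4.95% of all tested genes with a promoter. The ETS motif GAGGAAGT was in 7 of the 84 (8.33%) and 3.75% of all, the E-box CACGTG in 2 (2.38%) and 11.3%, the CRE motif TGACGTCA in 4 (4.76%) and 3.27%, the C/EBP motif TTGCGCAA in 1 (1.19%) and 0.319%, and the DR1 motif in 0 and 0.0504%. A gene with several starts was counted once. Such matches are a description of the letters and not of factor binding. The promoters of 3 macrophage genes and of Slc37a2, a sugar phosphate transporter of macrophages, are shown because they hold TGACTCA or its reverse complement TGAGTCA, and that of Lep because it holds the C/EBP motif near its start and Lep had the largest difference among fat cell markers. Capitals mark these motifs.
Gpnmb (chr6:49036268-49036567, plus strand): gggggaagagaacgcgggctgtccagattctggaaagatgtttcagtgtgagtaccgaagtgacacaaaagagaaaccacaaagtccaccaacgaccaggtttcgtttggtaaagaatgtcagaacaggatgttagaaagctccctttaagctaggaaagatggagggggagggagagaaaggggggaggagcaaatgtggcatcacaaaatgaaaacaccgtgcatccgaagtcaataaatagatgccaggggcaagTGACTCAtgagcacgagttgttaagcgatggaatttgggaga
Itgax (chr7:128129300-128129599, plus strand): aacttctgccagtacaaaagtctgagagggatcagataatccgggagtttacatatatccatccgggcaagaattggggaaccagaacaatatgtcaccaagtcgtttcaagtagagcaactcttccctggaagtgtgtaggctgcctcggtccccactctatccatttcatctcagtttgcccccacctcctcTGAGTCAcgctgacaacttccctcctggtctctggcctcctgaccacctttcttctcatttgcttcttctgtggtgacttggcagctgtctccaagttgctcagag
Cd68 (chr11:69666121-69666420, minus strand): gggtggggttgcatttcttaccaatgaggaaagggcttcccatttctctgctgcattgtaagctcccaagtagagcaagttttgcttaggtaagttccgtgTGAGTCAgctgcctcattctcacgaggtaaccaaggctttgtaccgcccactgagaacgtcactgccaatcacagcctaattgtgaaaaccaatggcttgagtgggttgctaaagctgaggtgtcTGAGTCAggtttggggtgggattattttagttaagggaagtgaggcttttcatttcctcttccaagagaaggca
Slc37a2 (chr9:37255689-37255988, minus strand): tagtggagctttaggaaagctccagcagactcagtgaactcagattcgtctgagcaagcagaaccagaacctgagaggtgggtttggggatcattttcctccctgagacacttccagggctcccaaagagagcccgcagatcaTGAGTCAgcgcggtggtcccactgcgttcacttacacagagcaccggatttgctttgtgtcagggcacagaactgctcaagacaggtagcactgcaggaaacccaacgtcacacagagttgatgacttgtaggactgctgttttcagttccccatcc
Lep (chr6:29059971-29060270, plus strand): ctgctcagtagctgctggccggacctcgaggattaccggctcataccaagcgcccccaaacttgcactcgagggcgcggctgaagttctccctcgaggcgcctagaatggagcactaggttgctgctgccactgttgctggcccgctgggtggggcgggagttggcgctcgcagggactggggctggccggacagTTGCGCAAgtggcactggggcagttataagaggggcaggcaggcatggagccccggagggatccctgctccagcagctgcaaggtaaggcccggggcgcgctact
The motif began 9 bases after the start of Gpnmb, 56 before that of Itgax and 107 before that of Slc37a2. In Cd68 it occurred 149 and 24 bases before the start, and in Lep the C/EBP motif began 55 bases before it. Slc37a2 itself was at 21.4, 19.0 and 20.4 CPM in BAT WT and 5.79, 2.24 and 3.14 in BAT C6KO, against 336, 280 and 330 in WT and 304, 242 and 246 in C6KO in eWAT (edgeR adjusted p of the difference = 0.00998).

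Genes that mark white against brown fat cells had opposite medians in the depots. Of 14 tested, 4 were called (28.6%, beside 0.708% of all tested genes), namely Lep, Sncg, Npr3 and Nnat. Not every member moved this way: the difference of effects was positive for 11 of the 14. The BAT estimate was negative for 9, or 7 without BAT WT replicate 2, and the eWAT estimate was negative for 2. Tcf21 and Wt1, which mark cells of visceral white fat, were at 0 counts in all 6 BAT libraries and so were tested through eWAT alone. Over the 12 members with BAT counts the median effect was 0.57 in eWAT and -0.89 in BAT (log2), and over all 14 it was 0.55 and -0.51, or -0.20 in BAT without BAT WT replicate 2. Of the members, 5 fell in BAT, as did 3.2% of all tested genes. In eWAT 0 passed by edgeR, where 2 had an unadjusted p below 0.05 and DESeq2 and limma voom each called 1. Their summed level was 3238 to 3750 CPM in eWAT WT and 4557 to 5961 in eWAT C6KO, and 1703 to 2457 in BAT WT and 869 to 1372 in BAT C6KO. The positive eWAT median was not particular to this list. It was 0.61 for 15 general fat cell genes, 0.56 for 38 PPAR targets and 0.55 for 19 endothelial genes, whose BAT medians were 0.16, 0.22 and 0.18. Other lists had medians of the same signs as the white fat list. For 8 red blood cell genes they were 0.83 in eWAT and -1.03 in BAT, with every member positive in eWAT and negative in BAT and 0 called by edgeR, DESeq2 or limma voom (1 at an unadjusted p below 0.05), while the summed level overlapped between genotypes in both depots. For 28 immediate early genes, which respond to stimulation and to tissue handling, they were 0.08 and -0.59. Of these genes 6 were lower in BAT by the test, as were 3.2% of all tested genes. Between depots 0 were called by edgeR or limma voom (11 at an unadjusted p below 0.05 and 4 by DESeq2). Adipokine, homeobox and position, unfolded protein and stress, and cholesterol genes had medians of 0.52 and -0.67, 0.22 and -0.13, 0.15 and -0.08, and 0.09 and -0.08. The part of these lists in the white fat result was not tested.

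Lep, the satiety hormone leptin, was at 1480, 1228 and 1473 CPM in eWAT WT and 1846, 2573 and 1580 in eWAT C6KO. In BAT it was at 381, 534 and 331 in WT and 21.2, 42.1 and 62.4 in C6KO. All 3 C6KO libraries were above WT in eWAT, with a ratio of 1.44-fold that did not pass the test, and all 3 were below WT in BAT, by 9.88-fold (log2 difference 3.83, SE 0.47, edgeR adjusted p = 0.00389). Its gene lies at chr6:29060221-29073876.

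Sncg, which encodes gamma-synuclein, an adipocyte protein of lipid droplets, was at 315, 334 and 294 CPM in eWAT WT, 451, 576 and 418 in eWAT C6KO, 155, 186 and 152 in BAT WT and 27.4, 32.9 and 25.8 in BAT C6KO. C6KO was above WT in every eWAT library, by a ratio of 1.53-fold, and below it in every BAT library, by 5.70-fold (log2 difference 3.13, SE 0.22, edgeR adjusted p = 2.96e-05). Npr3, the clearance receptor for natriuretic peptides, was at 703, 570 and 658 CPM in eWAT WT, 1393, 1096 and 699 in eWAT C6KO, 651, 815 and 638 in BAT WT and 187, 116 and 111 in BAT C6KO. It fell 5.07-fold in BAT, and in eWAT 1 C6KO library lay among the WT values (log2 difference 3.06, edgeR adjusted p = 0.00241). The imprinted gene Nnat was at 352, 302 and 366 CPM in eWAT WT, 476, 524 and 681 in eWAT C6KO, 177, 431 and 166 in BAT WT and 46.3, 83.4 and 57.0 in BAT C6KO, with genotypes apart in opposite directions (edgeR adjusted p = 0.0284). BAT WT replicate 2 was the highest of its group for Nnat, and without it the log2 difference was 2.26 (edgeR adjusted p = 0.0034). Its call was kept in 5 of the 12 fits that left out 1 library, and the highest adjusted p among all alternatives was 0.0977. Mest, an imprinted gene that tracks fat cell expansion, had estimates of 0.84 in eWAT and -2.15 in BAT and missed the threshold (edgeR adjusted p = 0.0565).

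Of 41 tested genes for collagens and their assembly 5 were called (12.2%, beside 0.708% of all tested genes). The list's medians were negative in both depots, at -0.13 in eWAT and -0.72 in BAT, and 3 of its called genes, Tnc, Thbs1 and Lox, were among the 26 with opposite estimates. Tnc, the matrix protein tenascin-C, was at 24.0, 16.2 and 20.9 CPM in eWAT WT, 37.9, 40.6 and 24.7 in eWAT C6KO, 16.1, 17.2 and 12.5 in BAT WT and 4.76, 4.75 and 3.03 in BAT C6KO. It fell 3.64-fold in BAT and its eWAT groups were apart in the other direction (log2 difference 2.62, edgeR adjusted p = 0.0042). Thbs1, thrombospondin-1, an activator of TGF-beta, was at 321, 170 and 264 CPM in eWAT WT, 1001, 501 and 582 in eWAT C6KO, 69.2, 56.0 and 40.3 in BAT WT and 29.1, 31.9 and 23.6 in BAT C6KO. It had an eWAT ratio of 2.76-fold, and neither depot alone passed the test (log2 difference 2.43, edgeR adjusted p = 0.0253).

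Lox, which crosslinks collagen, fell 2.08-fold in BAT with overlapping eWAT groups and a difference of 1.65. Tnfrsf12a, the receptor for the cytokine TWEAK, was at 15.4, 10.2 and 13 CPM in eWAT WT, 26.9, 34.4 and 31.8 in eWAT C6KO, 59.5, 23.2 and 35.0 in BAT WT and 16.6, 12.9 and 16.6 in BAT C6KO. It was 1 of the 4 opposite genes whose eWAT effect passed when eWAT was fitted alone (edgeR adjusted p = 0.0278), beside Mcam, Sucnr1 and Prr32. The basement membrane collagen gene Col18a1 and the fibrillar collagen gene Col5a3 moved in BAT alone, by -1.38 and -1.17 on the log2 scale.

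Several opposite genes encode transcription factors, receptors and lipid enzymes of fat cells or their precursors. Vgll3, a cofactor that restrains adipogenesis, was at 84.2, 48.4 and 70.9 CPM in eWAT WT, 221, 109 and 154 in eWAT C6KO, 24.4, 22.3 and 16.9 in BAT WT and 3.6, 4.84 and 4.11 in BAT C6KO. The groups were apart in both depots, with ratios of 2.38-fold up in eWAT and 5.0-fold down in BAT (log2 difference 3.57, SE 0.39, edgeR adjusted p = 0.00238). Fads3, a desaturase that acts on sphingoid bases, was at 466, 361 and 432 CPM in eWAT WT, 714, 696 and 529 in eWAT C6KO, 97.6, 158 and 99.6 in BAT WT and 32.2, 37.7 and 33.8 in BAT C6KO (edgeR adjusted p = 0.00241). Sucnr1, the succinate receptor, was at 43.6, 36.4 and 48.1 CPM in eWAT WT, 82.8, 66.1 and 68.6 in eWAT C6KO, 21.4, 21.4 and 9.21 in BAT WT and 1.93, 4.57 and 4.54 in BAT C6KO, also with no overlap (edgeR adjusted p = 0.0143). Mcam, an adhesion molecule of vessel walls, and Pkp2, a desmosome protein, had smaller differences of 1.51 and 1.70.

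Transporters and channels were also among the opposite genes. Slc6a13, which carries GABA and taurine, was at 33.8, 38.1 and 36.0 CPM in eWAT WT, 68.8, 50.5 and 51.4 in eWAT C6KO, 19.6, 32.8 and 25.9 in BAT WT and 10.7, 6.54 and 7.46 in BAT C6KO, with separate groups in both depots (log2 difference 2.34, edgeR adjusted p = 0.0042). Kcnj14, an inward rectifier potassium channel, was at 6.28, 7.86 and 5.5 CPM in eWAT WT and 10.5, 12.4 and 9.01 in C6KO, and had 13, 25 and 11 counts in BAT WT and 0 in all 3 BAT C6KO libraries. Against a floor of 3 counts a library it was at least 5.40-fold lower in BAT C6KO (edgeR adjusted p of the difference = 0.00238). Slc5a7, the choline transporter of cholinergic nerves, was at 65.2, 65.2 and 62.7 CPM in eWAT WT and 193, 108 and 62.9 in C6KO, where the groups overlapped, and had 26, 78 and 16 counts in BAT WT against 1, 1 and 4 in BAT C6KO. Its call was kept in 2 of the 12 fits that left out 1 library and in 7 of 25 alternatives in all (limma voom adjusted p = 0.428).

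The other opposite genes are less well known. Prr32, Ccdc9b, Gm5144, Gm5627 and the non-coding 1700047G03Rik were higher in C6KO by estimate in eWAT and lower in BAT, with differences from 1.66 for Ccdc9b to 4.44 for Gm5627. Gm5627 was at 6.0, 5.19 and 6.20 CPM in eWAT WT, 15.8, 9.72 and 11.6 in eWAT C6KO, 5.46, 4.94 and 2.78 in BAT WT and 0.515, 0.627 and 0.108 in BAT C6KO, with no overlap in either depot. Akr1cl, an aldo-keto reductase, had 2, 28 and 6 counts in BAT WT and 0 in all 3 BAT C6KO libraries. Most of the WT counts were in replicate 2 and another WT library lay under the floor of 3, so no fold is given, and the call was kept in 4 of the 12 fits that left out 1 library. It had 11, 10 and 14 counts in eWAT WT and 22, 111 and 50 in eWAT C6KO. It belongs to a gene family with close copies, so its reads are uncertain.

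In 3 opposite genes the effect was lower in eWAT than in BAT. Cerkl, a ceramide kinase-like protein, was at 4.56, 6.5 and 3.37 CPM in eWAT WT, 2.70, 2.42 and 2.45 in eWAT C6KO, 9.38, 7.93 and 8.46 in BAT WT and 15.6, 13.6 and 13.1 in BAT C6KO (log2 difference -1.65, edgeR adjusted p = 0.044). Its groups were apart in both depots, and its call was kept in 1 of the 12 fits that left out 1 library and in 8 of 26 alternatives in all. Sim2, a transcription factor, had 17, 26 and 14 counts in eWAT WT and 0, 2 and 0 in eWAT C6KO, against 12, 25 and 32 in WT and 18, 42 and 54 in C6KO in BAT, where the groups overlapped. Gm5779, a predicted gene, had 6, 5 and 2 counts in eWAT WT and 0, 0 and 0 in eWAT C6KO and 0, 1 and 1 in WT and 6, 18 and 19 in C6KO in BAT, too few for a fold.

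**Figure D4:**
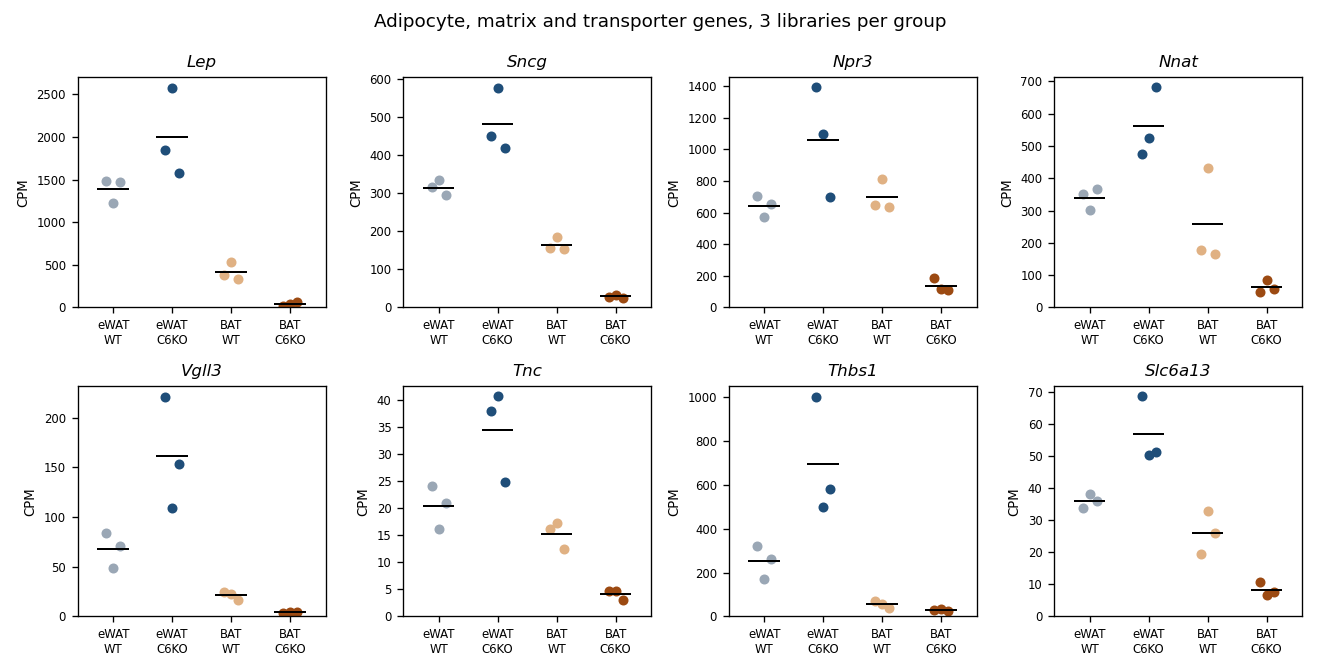
CPM of 8 genes of fat cells, matrix and transport in each library (points, 3 a group) with the group mean (line), and the y axis from 0. In BAT all 3 C6KO libraries lie below all 3 WT libraries in each panel, and in eWAT the C6KO mean lies above the WT mean.

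Outside the macrophage list and Lep, the 69 genes that moved in BAT alone with the effect higher in eWAT included enzymes of amino acid synthesis and breakdown. Psat1, which makes serine, was at 30.2, 31.2 and 33.4 CPM in BAT WT and 7.85, 8.42 and 10.2 in BAT C6KO, and at 103, 105 and 111 in WT and 109, 147 and 80.6 in C6KO in eWAT. It fell 3.57-fold in BAT with an eWAT ratio of 1.06-fold and overlapping eWAT groups (log2 difference 1.92, edgeR adjusted p = 0.00534). Bcat1, the cytosolic transaminase of branched-chain amino acids, was at 9.38, 11.7 and 12.3 CPM in BAT WT and 4.12, 1.88 and 2.38 in BAT C6KO, and at 18.4, 13.8 and 16.1 in WT and 16.7, 26.9 and 24.7 in C6KO in eWAT (edgeR adjusted p = 0.01). Pycr1, which makes proline, had 10, 18 and 17 counts in BAT WT and 2, 2 and 3 in BAT C6KO. Of the 24 tested genes of branched-chain amino acid breakdown Bcat1 was the 1 called (4.17%). Of 41 genes of the unfolded protein and integrated stress responses Psat1 was the 1 called (2.44%). Over all tested genes the share was 0.708%, and 1 gene says little about either list.

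Tmem45b, a membrane protein of unclear role, was at 718, 600 and 388 CPM in BAT WT and 200, 144 and 175 in BAT C6KO, and at 208, 196 and 194 in WT and 295, 382 and 216 in C6KO in eWAT. It fell 3.28-fold in BAT while its eWAT libraries were higher in C6KO by a ratio of 1.5-fold, just under the limit for the opposite class (edgeR adjusted p = 0.00835). Prrx1, a transcription factor of mesenchymal precursors, was at 48.3, 62.1 and 48.5 CPM in BAT WT and 21.4, 17.7 and 21.9 in BAT C6KO, with an eWAT ratio of 1.36-fold and overlapping eWAT groups (edgeR adjusted p = 0.0111). The mitotic kinase Nek6 was called with a difference of 2.11, and the annexins Anxa1 and Anxa2 with 1.84 and 1.49.

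Some BAT-alone genes were at or near 0 in BAT C6KO, so the size of their fall is poorly known. Tph2, a tryptophan hydroxylase, had 44, 109 and 35 counts in BAT WT and 1, 1 and 0 in BAT C6KO, against 54.9, 38.6 and 42.7 CPM in eWAT WT and 28.3, 64.0 and 22.8 in eWAT C6KO. The chemokine receptor Ccr3 had 10, 8 and 7 and the kinesin Kif18b 4, 9 and 7 counts in BAT WT, and both were at 0 in all BAT C6KO libraries, which is at least 2.93-fold and 2.18-fold lower. Vsig8 had 19, 26 and 14 counts in BAT WT and 1, 1 and 0 in BAT C6KO. Siglec15 had 3, 4 and 3 counts in BAT WT and 0 in C6KO, and its call was kept in 1 of the 12 fits that left out 1 library (limma voom adjusted p = 0.459). Ubd, an interferon-induced ubiquitin-like protein, was at 22.3, 27.0 and 16.6 CPM in BAT WT and 2.96, 0.896 and 2.71 in BAT C6KO, while its eWAT groups overlapped (edgeR adjusted p = 0.0336). By limma voom the adjusted p was 0.409 for Tph2, 0.304 for Ccr3, 0.112 for Kif18b, 0.381 for Vsig8 and 0.217 for Ubd. In that order their calls were kept in 8, 3, 10, 11 and 5 of the 12 fits that left out 1 library.

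In 7 BAT-alone genes C6KO was higher in BAT, so that the effect was lower in eWAT. C3, the central complement component, was at 445, 479 and 607 CPM in BAT WT and 1109, 1182 and 1034 in BAT C6KO. Its eWAT level was 2859, 3474 and 2408 in WT and 2052, 1835 and 2457 in C6KO. It rose 2.18-fold in BAT with overlapping eWAT groups whose ratio ran the other way, 1.37-fold lower in C6KO (log2 difference -1.58, SE 0.26, edgeR adjusted p = 0.016). It was the 1 called gene of 28 complement and Fc receptor genes in that direction, where Itgax, Itgb2 and C3ar1 were called in the other.

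Acss1, which makes acetyl-CoA from acetate in mitochondria, was at 164, 179 and 191 CPM in BAT WT and 297, 398 and 320 in BAT C6KO, and at 32.8, 28.5 and 38.8 in WT and 26.4, 27.9 and 26.8 in C6KO in eWAT (log2 difference -1.23, edgeR adjusted p = 0.016). Slc12a7, a potassium chloride cotransporter, was at 64.3, 61.3 and 74.3 in WT and 137, 134 and 161 in C6KO (CPM) in BAT, with overlapping eWAT groups at 89.5, 103 and 102 in WT and 97.0, 83.9 and 97.1 in C6KO (edgeR adjusted p = 0.00855). Stxbp2, which guides membrane fusion in secretion, was at 30.2, 23.3 and 30.7 in WT and 57.2, 56.2 and 62.4 in C6KO (CPM) in BAT and at 73.6, 77.1 and 70.8 in WT and 60.1, 67.2 and 62.8 in C6KO in eWAT, with groups apart in opposite directions (edgeR adjusted p = 0.00522). Slc12a9, Abcc10 and St3gal1 rose 1.78-fold, 2.05-fold and 1.57-fold in BAT.

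The 7 genes of the eWAT-alone class all had the effect higher in eWAT. Lgr4, the R-spondin receptor that enhances Wnt signalling, was at 56.3, 51.2 and 49.0 CPM in eWAT WT and 124, 91.7 and 88.2 in eWAT C6KO, and at 48.7, 52.8 and 50.4 in WT and 36.1, 42.8 and 37.9 in C6KO in BAT. It rose 1.94-fold in eWAT (log2 0.96, SE 0.14, edgeR adjusted p = 0.0359), while in BAT the C6KO libraries were below WT by a ratio of 1.30-fold that did not pass. The log2 difference was 1.33 (SE 0.19, edgeR adjusted p = 0.00775). Zfp423, a zinc finger protein that helps maintain white fat cell identity, was at 42.6, 40.9 and 38.6 CPM in eWAT WT and 75.6, 60.0 and 55.5 in eWAT C6KO, and at 45.1, 53.4 and 51.1 in WT and 33.2, 44.3 and 37.0 in C6KO in BAT. Its genotypes were apart in both depots, in opposite directions, with a log2 difference of 1.03 (edgeR adjusted p = 0.0375, and 0.0584 by limma with weights for each depot). Pxdc1, Mturn, Tmem120b, Pvr and Cdc42ep1 had eWAT ratios of 2.27-fold, 1.75-fold, 1.96-fold, 1.64-fold and 1.58-fold. Tmem120b is a membrane protein linked to adipogenesis, and Pvr is an adhesion molecule of the nectin family.

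In the same-direction class all 6 genes were lower in C6KO in both depots and more so in BAT. Of these, 5 act in immune cells, namely Ctss, Tlr1, Rgs1, Tnip3 and Lilr4b, the last with the uncertainty of reads given above. Rgs1, which dampens chemokine signals, was at 199, 150 and 129 CPM in eWAT WT and 109, 112 and 83.1 in eWAT C6KO, and at 14, 9.79 and 8.89 in WT and 1.16, 0.448 and 0.757 in C6KO in BAT. It was lower by an estimate of 1.57-fold in eWAT and fell 14.1-fold in BAT (log2 difference 3.17, edgeR adjusted p = 0.00359). Myh15, a myosin heavy chain, was at 72.3, 76.7 and 67.2 CPM in eWAT WT and 28.9, 37.2 and 23.9 in eWAT C6KO, and had 13, 26 and 14 counts in BAT WT and 0, 0 and 1 in BAT C6KO. The remaining 5 genes, Ehd2, Nap1l1, Grk5, C9orf72 and Kmt5c, stayed under 1.5-fold in each depot, with differences from -0.89 for Kmt5c to 1.08 for Ehd2.

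Heat production and mitochondrial fuel use gave no called gene, where 0.708% of all tested genes were called higher in eWAT and 0.0715% lower. At such shares lists of this size would hold few or no called genes, so the 0 does not set them apart from other genes. Of 29 tested thermogenesis genes, 53 of oxidative phosphorylation, 32 of beta oxidation, 25 of the TCA cycle, 25 of lipolysis, 24 of lipogenesis and 38 PPAR targets, 195 genes in all with overlaps counted once, 0 differed between depots by edgeR. At an unadjusted p below 0.05 there were 23 of these, DESeq2 called 7 and limma voom 0. Their median differences ran from -0.17 for lipogenesis to 0.31 for lipolysis, beside 0.03 over all tested genes. That count of 23 had no fold minimum, and on the same terms 1771 of the 15392 tested genes had an unadjusted p below 0.05. With a difference of 1.5-fold or more as well, there were 990 of all tested genes in the direction of eWAT and 401 in the other. Pnpla2, the lipase ATGL, was at 959, 823 and 1050 CPM in eWAT WT, 1873, 1576 and 1398 in eWAT C6KO, 3185, 2846 and 3223 in BAT WT and 4413, 4880 and 4709 in BAT C6KO. C6KO was above WT in both depots, by a ratio of 1.71-fold in eWAT and 1.52-fold in BAT, and the log2 difference was 0.17 (SE 0.22, edgeR adjusted p = 0.834). Pparg had a difference of 0.01 (SE 0.28), Lipe of 0.48 (SE 0.19) and Adipoq of 0.49 (SE 0.30), none past the threshold. For Ucp1 the difference was 2.14 (SE 1.21), also not past it, and it was 0.24 without eWAT C6KO replicate 1, the eWAT library at 5.63 CPM.

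Lymphocyte and muscle lists held 1 gene called by edgeR, 1 of 15 B and plasma cell genes (6.67%, beside 0.708% of all tested genes). The BAT medians of these lists turned on BAT WT replicate 2. DESeq2 called 1 of the T and NK cell genes and 0 of the muscle genes, limma voom called 0 of either, and 3 and 0 had an unadjusted p below 0.05. The median BAT effect was -3.18 for 15 B and plasma cell genes, -1.92 for 21 T and NK cell genes and -1.58 for 26 muscle genes, against -0.14, -0.86 and -0.08 in eWAT. Without BAT WT replicate 2 the BAT medians were -0.50, -0.79 and 2.36, so the muscle list changed direction and 0 of its 26 estimates were negative. B and plasma cell genes summed to 139, 333 and 114 CPM in the 3 BAT WT libraries and 107, 106 and 116 in BAT C6KO, and BAT WT replicate 2 was the highest. Blnk, an adaptor of B cells and macrophages, was the called gene, at 12.5, 12 and 7.17 CPM in BAT WT and 3.22, 3.85 and 2.71 in BAT C6KO. Without BAT WT replicate 2, 116 of the 120 calls were retained. Without that library and the other 2 BAT libraries above 10000 CPM of muscle transcripts, 62 of the 120 were retained and all 120 kept their direction, with 1 BAT C6KO library left whose spread was taken from the other groups.

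**Figure D5:**
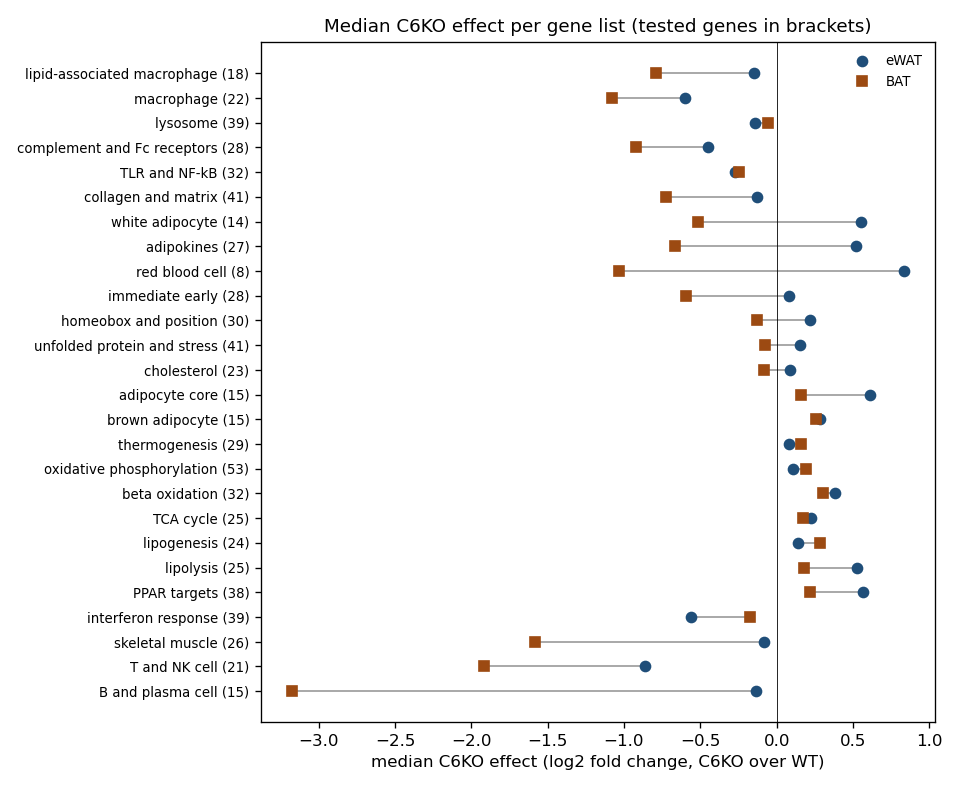
Median C6KO effect (log2 fold change, C6KO over WT) over the tested genes of each list, in eWAT (circles) and BAT (squares), with the number of tested genes in brackets. The white adipocyte, adipokine, red blood cell, immediate early, homeobox, stress and cholesterol lists lie above 0 in eWAT and below 0 in BAT.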

How the data were processed

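Poly(A) RNA was sequenced on a NextSeq 2000. The authors aligned reads to mm10 with STAR and counted exon reads per gene with HOMER, keeping 1 transcript a gene; the deposited values are raw counts, and tool versions, annotation and strand setting are not given in the sources used here. The deposited counts were joined by symbol across the eWAT and BAT tables, which kept another transcript for 1167 tested genes. Counts in 12 libraries were filtered, scaled by TMM and fitted in edgeR 4.0.16 (R 4.3.3) with 1 mean a group, and the interaction was tested by quasi-likelihood with Benjamini-Hochberg adjustment over the 15392 genes tested. A gene was called at an adjusted p below 0.05 with effects at least 1.5-fold apart, and classes used the same 1.5-fold limit. DESeq2 1.42.0, limma 3.58.1, other scalings and filters, replicate blocks and omission of libraries were alternatives. Replicates were separate samples per the labels, so p-values measure the spread between these samples. Bounds used a floor of 3 counts a library and cover counting error only. Figures were drawn with matplotlib 3.10.9.

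The genes and lists were chosen with earlier results of these data known. The naming rule took Casp6, genes the study discusses, all opposite genes (a few are not reported here), the 15 called genes of at least 1 CPM with the largest difference in each direction, up to 6 called members of each list, and up to 3 members with the smallest adjusted p of a list with no called member. Other genes, among them Adam8, Cd44, Slc37a2, Tmem45b, Nek6, Prrx1, Anxa1, Anxa2, Cd300a, Cd300lb, Lgr4, Pxdc1, Mturn, Tmem120b, Cdc42ep1, Pvr, Ehd2, Tnip3 and Grk5, were named after their values had been seen. The omission of the 3 BAT libraries richest in muscle transcripts and the fit of each depot alone were added after the data were seen.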

Additional observations from a re-analysis of the deposited data

Results flagged for a closer look

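The test of the interaction picked out 109 genes with the knockout effect higher in eWAT than in BAT and 11 with it lower. Among them, 26 had opposite estimates in the 2 depots, and the values below, for those reported here, are log2 differences of effects, eWAT minus BAT. In fat cell, matrix and receptor genes the difference was 3.57 for Vgll3, 3.13 for Sncg, 3.06 for Npr3, 2.97 for Sucnr1, 2.77 for Nnat, 2.62 for Tnc, 2.62 for Tnfrsf12a, 2.43 for Thbs1, 2.40 for Fads3, 1.70 for Pkp2, 1.65 for Lox and 1.51 for Mcam. In transporters and channels it was 5.18 for Slc5a7 and 2.34 for Slc6a13, and the fit gave 8.37 for Kcnj14, whose BAT C6KO libraries were all at 0. In less known genes it was 4.44 for Gm5627, 4.43 for 1700047G03Rik, 3.56 for Prr32, 2.58 for Gm5144 and 1.66 for Ccdc9b, and the fit gave 9.45 for Akr1cl, also at 0 in BAT C6KO. It was negative for Cerkl (-1.65), Sim2 (-5.21) and Gm5779 (-8.95). Fitted values of genes at or near 0 depend on the prior count and are no bound.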

How the results depend on the processing

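All 120 calls kept their direction in each of the 26 alternatives that gave a value, and 16 stayed called in all of these. From 109 higher, 11 lower, 26 opposite, 76 BAT-alone and 7 eWAT-alone genes, DESeq2 moved the counts to 423, 67, 88, 252 and 60, glmTreat against 1.5-fold to 41, 1, 15, 25 and 0, and limma voom gave 51 higher, 35 BAT-alone and 3 eWAT-alone. DESeq2 size factors and total-count scaling each gave 12 eWAT-alone, 10 counts in every library 14, and all 18 libraries 48 BAT-alone. Without the 3 muscle-rich BAT libraries 28 were lower and 3 eWAT-alone. Knockout effects called, 9 in eWAT and 623 in BAT, became 278 and 1004 by DESeq2, 237 and 242 by limma voom, 2 and 173 by glmTreat, 81 and 370 without those 3 libraries and 111 and 168 with each depot alone, and 4 in eWAT with all 18. Leaving out 1 library gave 37 to 199 higher, 3 to 19 lower, 11 to 43 opposite, 23 to 156 BAT-alone and 1 to 20 eWAT-alone genes, and 2 to 57 eWAT and 357 to 786 BAT effects. The higher count was 54, 38 and 37 without eWAT WT 1, 2 and 3, 61 and 60 without eWAT C6KO 1 and 2, and 199 without BAT WT 2 or BAT WT 3. The cause was not tested.

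Same-numbered libraries did not deviate together across depots (r from -0.07 to 0.10) or within BAT (-0.48 to -0.17), and within eWAT r was 0.15, -0.08 and 0.16. As not every pair was over 0.1, the numbers were not taken as pairs. A replicate block across depots left 83 higher and 7 lower, a replicate block within each depot 78, 2 and 48 BAT-alone, and a replicate block joining depots by genotype and number 43, 5, 14 opposite, 26 BAT-alone and 1 eWAT-alone, with 4 eWAT and 146 BAT effects. These called 81, 65 and 43 of the 120 genes. BAT depth limits low genes, so genes near 0 in BAT C6KO have no reliable fold.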

Other observations

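The inguinal white fat (iWAT) of the same study, with 3 WT and 3 C6KO libraries, took no part in the comparison of eWAT with BAT. Fitted alone by edgeR it had 3 lower and 1 higher gene over all genes tested. Of the 108 genes with the effect higher in eWAT that had an iWAT value, 74 (68.5%) had a negative iWAT estimate, beside 46.2% of 14533 genes tested, and 0 were called, with a median of -0.58 on the log2 scale. Of the 22 opposite genes with the effect higher in eWAT that had a value, 4 (18.2%) were negative in iWAT, with a median of 0.17. Atp6v0d2 had an iWAT estimate of -1.93, Lep of -0.20 and Sncg of 0.26, none past the threshold.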
